A study of Mus musculus with 2 samples.

Results

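The 32 genes described here encode transcription factors that are known from the endocrine pancreas. They were taken by symbol from a list that was chosen with earlier results of these data known. All 32 were found among the 38924 genes that the expression files list. Their RNA was measured in pancreatic islets of 2 inbred mouse strains. CAST/EiJ (CAST) is an inbred strain derived from wild mice. C57BL/6J (B6) is the common laboratory strain from which the mouse reference genome was built. All mice were males of 10 weeks, without any transgene, deletion or treatment named in the labels, and their islets were isolated in buffer with 16.7 mM glucose. Islets of 2 mice were pooled per strain, and 250 islets of each pool gave 1 RNA library. The CAST library held 104324631 expected counts, that is reads assigned to transcripts by RSEM, and the B6 library held 76600903. With 1 library per strain the spread between mice is unknown, so the strains could not be compared by a test. All ratios are between these 2 libraries, and every 95% interval covers counting error only. Reads are not independent molecules, and the intervals do not cover variation between mice. Reads of both strains were quantified on the B6-based reference. Whether strain variants in CAST reads affect the ratio of any gene was not tested.

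An islet is a small cluster of hormone-secreting cells: beta cells make insulin, alpha cells glucagon and delta cells somatostatin. Transcription factors bind DNA near genes and set how much of each is transcribed. In the embryo a cascade of them, with Neurog3 at its head, turns progenitors of the pancreas into endocrine cells. Other factors, such as Pdx1, Mafa and Nkx6-1, then keep beta cells in their mature state and act on the insulin genes. Many of the genes carry mutations in inherited forms of human diabetes.

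The tissue label was checked against marker genes. All 8 beta cell markers, 6 alpha cell markers and 4 delta cell markers were detected in both libraries, and Ins2 alone had 477729 TPM (the length-corrected share of all transcripts) in CAST and 404421 TPM in B6. Acinar markers, which belong to the digestive part of the pancreas, summed to 12575 TPM in CAST and 4157 TPM in B6, and all 8 were higher in CAST, the median log2 ratio being 1.76. Stellate and fibroblast markers (5 of 5, median 1.09) and duct markers (4 of 5 with enough counts, median 1.12) were higher in CAST too. Alpha cell markers summed to 39337 TPM in CAST and 65930 TPM in B6, and delta cell markers to 3630 TPM in CAST and 8524 TPM in B6. Counts of 5 of the 6 alpha and all 4 delta markers were relatively lower in CAST, with median log2 ratios of -0.79 and -0.84, and 6 of 8 beta markers were relatively higher, with a median of 0.24. No marker on these lists was at 0 counts in either library. The part of these differences in the results below was not tested.

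Most of the factors were well expressed. TPM, which divides by transcript length and so can be compared between genes, reached 1 or more for 28 of the 32 genes in CAST and for 26 in B6. At the top stood Nkx6-1 with 182 TPM in CAST and 226 TPM in B6, Pax6 with 182 TPM in CAST and 196 TPM in B6, and Mafa with 180 TPM in CAST and 201 TPM in B6. These 3 lay within 2 TPM of each other in CAST, and their order differs between the libraries. Next came Nkx2-2 with 83.1 TPM in CAST and 118 TPM in B6, and Neurod1 with 64.2 TPM in CAST and 118 TPM in B6. The other genes with more than 20 TPM in both libraries were Insm1, Isl1, Pdx1, Foxa2, Meis2, St18 and Rfx6.

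At the low end, 4 genes stayed under 100 counts over both libraries, the minimum set for a ratio. Foxa1, a pioneer factor of gut organs, had 31 counts in CAST and 8 in B6, a log2 ratio of 1.61 with a wide interval of 0.51 to 3.00. Onecut1, a factor of pancreas progenitors, had 25 counts in CAST and 17 in B6. Lmx1a, best known from midbrain neurons, had 2 counts in CAST and 0 in B6. Pax4, which directs endocrine precursors towards beta cells, had 1 count in CAST and 0 in B6. Both of the last are at or under the floor of 3 counts per library that a count of 0 allows, so no fold is given.

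**Figure D1:**
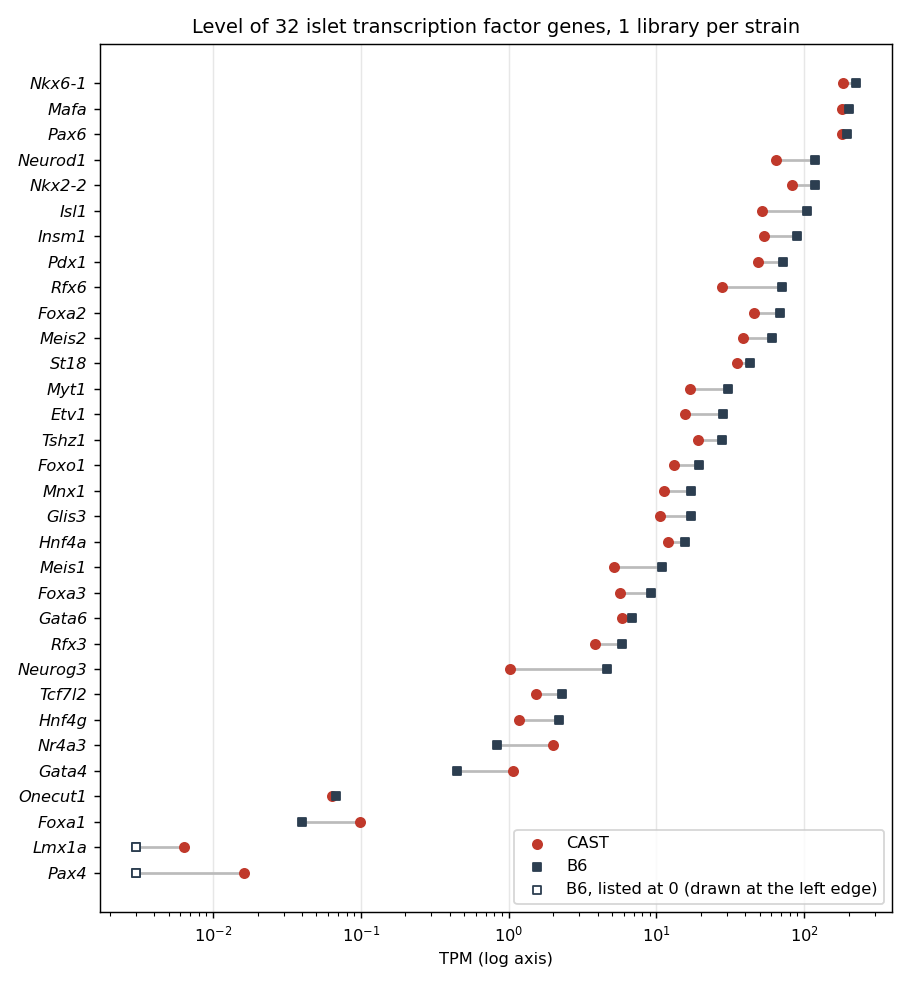
TPM of the 32 genes on a log axis, ordered by B6 level, with CAST as red circles and B6 as dark squares (1 library each). Nkx6-1, Mafa and Pax6 lead in both libraries, Nr4a3 and Gata4 lie farther right in CAST, and Pax4 and Lmx1a are listed at 0 in B6.

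For the comparison between strains, counts were scaled with TMM factors, which balance libraries on the bulk of their genes, and expressed as the log2 ratio of CAST over B6. Of the 28 factors with 100 or more counts, 22 had a ratio below 0 and 6 a ratio above 0. Below 0 lay 48.3% of all 14768 genes with that many counts. The median log2 ratio of the factors was -0.26, which is 1.19-fold higher in B6, against 0.02 over all genes, whose central 50% ran from -0.29 to 0.28. Among the 22 factors with at least 5 TPM in both libraries, 18 were below 0 and the median was -0.25, against 0.05 over 8430 genes with that level. Scaling by total counts put 25 factors below 0, and TPM put 26 there, with the median of all genes then at -0.14 and -0.26. The distance of the factors' median from that of all genes was -0.27 with TMM and -0.29 with TPM and a pseudocount of 1. Total counts shift the log2 ratios of all genes by nearly the same amount. The same distance of -0.27 with total counts was therefore fixed beforehand and adds no support.

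Most of these shifts were small. Only Nr4a3 and Gata4 were at least 2-fold higher in CAST, 2 of 28, where 7.18% of all genes were. Neurog3 alone was at least 2-fold higher in B6, 1 of 28, where 5.99% of all genes were. TPM with a pseudocount of 1 gave smaller log2 ratios for Nr4a3, 0.71, and for Gata4, 0.52, both under 2-fold. Such a pseudocount shrinks the ratios of genes near 1 TPM, as these are. With a pseudocount of 0.1 the values were 1.17 for Nr4a3 and 1.10 for Gata4, both over 2-fold. At 1.5-fold, the same 2 factors were higher in CAST, against 12.4% of all genes, and 4 factors (Neurog3, Rfx6, Meis1 and Isl1) were higher in B6, against 12.8% of all genes. The 4 factors past 1.5-fold towards B6 became 8 with total counts and 11 with TPM, scalings under which the median of all genes also moved towards B6. In whole islets, fewer cells of a type and less RNA per cell cannot be told apart in any of these values.

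**Figure D2:**
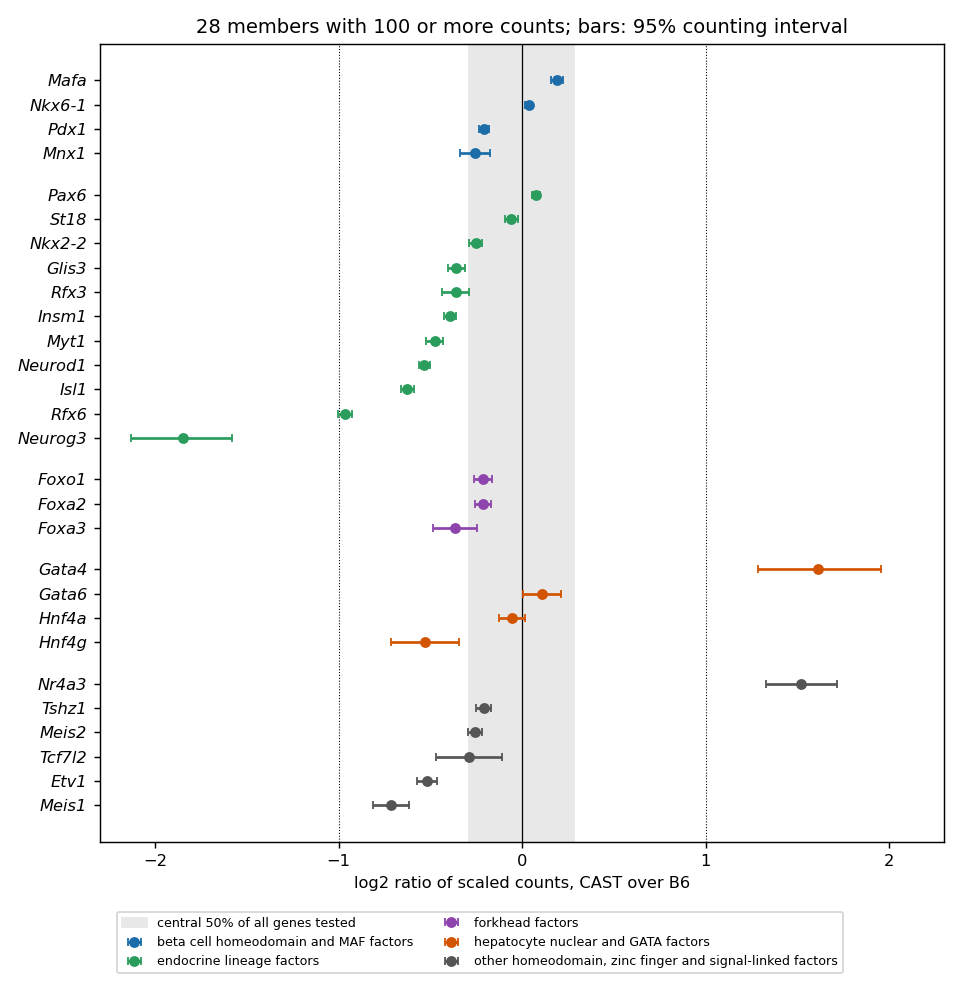
Log2 ratio of scaled counts (CAST over B6) of the 28 factors with 100 or more counts, grouped by role, with bars for the 95% counting interval, a grey band for the central 50% of all genes and dotted lines at 2-fold. Of 11 endocrine lineage factors 10 lie left of 0, while Gata4 and Nr4a3 stand apart on the right; with total counts Gata6, Nkx6-1 and Pax6 change to the left side, and with TPM Mafa as well.

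No beta cell homeodomain or MAF factor lay farther than 0.26 from 0 on the log2 scale. Nkx6-1, which represses the alpha cell programme in beta cells, had 60151 counts in CAST and 48064 in B6, a log2 ratio of 0.03 (0.02 to 0.05). Mafa, an activator of the insulin genes, had 18158 counts in CAST and 13014 in B6, and its ratio was the highest of the group at 0.19 (0.16 to 0.22). Both ratios lie inside the central 50% of all genes, and both are below 0 when taken from TPM. Pdx1, needed first to form the pancreas and later for insulin transcription, had 20840 counts (48.9 TPM) in CAST and 19705 counts (71.8 TPM) in B6. Its log2 ratio was -0.21 (-0.24 to -0.18). Mnx1, required for the dorsal pancreas and for beta cell identity, had 2506 counts in CAST and 2448 in B6, a log2 ratio of -0.26. As a group these 4 genes had 2 ratios above 0, 2 below, and a median of -0.09.

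A different picture held for the RNA transcribed opposite Pdx1. Plut, a noncoding antisense gene (chr5:147228596-147271521, minus strand, GRCm38), overlaps the body of Pdx1 (chr5:147269959-147275848, plus strand) without sharing an exon base with it. It had 312 counts (2.45 TPM) in CAST and 1231 counts (14.2 TPM) in B6, which is 4.81-fold higher in B6 with a log2 ratio of -2.27 (-2.45 to -2.09). Pdx1 and its antisense partner thus differed in the size of their ratios, -0.21 and -2.27, by more than the counting intervals. In human islets PLUT is known to promote PDX1 transcription. Most of the Plut reads fell to the transcript Plut-202, with 281 counts in CAST and 1195 in B6. Whether strain variants in CAST reads affect the Plut ratio was not tested, and the strand setting of the counting is not stated.

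Of the 11 endocrine lineage factors with enough counts, 10 had a ratio below 0, and their median was -0.39. Neurog3, the master regulator that commits progenitors to the endocrine fate, had 149 counts (1.01 TPM) in CAST and 440 counts (4.66 TPM) in B6. It was 3.60-fold higher in B6, with a log2 ratio of -1.85 (-2.13 to -1.58), the lowest of the 28 factors. Its level was also the lowest of the 11 lineage factors with enough counts. It lies at chr10:62133090-62134763 on the plus strand and has a single listed transcript. Fam241b runs across it on the opposite strand and shares 273 exon bases. The Fam241b transcripts that hold those bases had 4.14 counts in CAST and 21.8 counts in B6, and the strand setting of the counting is not stated, so reads there cannot be assigned to one of the genes with certainty. The 250 bases before the RefSeq start of Neurog3 (chr10:62132840-62133089, plus strand, GRCm38.p6) are printed because this gene has the lowest ratio. Capitals mark the single match found, a CCAAT box on the reverse strand whose first base lies at -89.
Neurog3: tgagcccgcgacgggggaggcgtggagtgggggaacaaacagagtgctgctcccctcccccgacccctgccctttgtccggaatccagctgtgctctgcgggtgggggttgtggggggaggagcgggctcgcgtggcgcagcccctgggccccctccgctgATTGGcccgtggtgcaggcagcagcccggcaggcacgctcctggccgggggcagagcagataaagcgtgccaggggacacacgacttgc

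Rfx6 and Isl1 followed. Rfx6, which acts after Neurog3 and maintains beta cell function, had 8520 counts (27.6 TPM) in CAST and 13625 counts (70.4 TPM) in B6, a log2 ratio of -0.97 (-1.01 to -0.93). That is 1.95-fold higher in B6, just under the 2-fold line, which it passed with total counts (-1.12) and with TPM (-1.32). Isl1, a LIM-homeodomain factor of all mature islet cell types, had 11577 counts (51.9 TPM) in CAST and 14627 counts (105 TPM) in B6, a log2 ratio of -0.63 (-0.66 to -0.59). Neurod1, a direct target of Neurog3 and activator of insulin transcription, had 17103 counts in CAST and 20262 in B6, a log2 ratio of -0.53. The gene Cerkl shares 201 exon bases with Neurod1 on the same strand and had a similar ratio, -0.48, from 1780 counts in CAST and 2038 in B6. Myt1, a zinc finger factor switched on by Neurog3, had 7167 counts in CAST and 8162 in B6, a log2 ratio of -0.48. Insm1, a zinc finger repressor of neuroendocrine cells, had 16283 counts in CAST and 17503 in B6, a log2 ratio of -0.39.

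Rfx3, Glis3 and Nkx2-2 had smaller negative log2 ratios. Rfx3, a regulator of ciliary genes and of beta cell maturation, had 3018 counts in CAST and 3176 in B6, with a ratio of -0.36. Glis3, a zinc finger activator of the insulin genes, had 7167 counts in CAST and 7526 in B6, also with a ratio of -0.36. Nkx2-2, which keeps beta cells from taking other endocrine fates, had 13285 counts in CAST and 12956 in B6, with a ratio of -0.25. The remaining pair was close to 0. St18, a relative of Myt1, had 14179 counts in CAST and 12093 in B6, with a ratio of -0.06. Pax6, needed for hormone gene transcription in all islet cell types, was the only lineage factor above 0, with 38180 counts in CAST, 29676 in B6 and a ratio of 0.07 (0.05 to 0.10). That sign turned with total counts and with TPM.

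All 3 forkhead factors with enough counts were below 0, with a median of -0.22. Foxa2, a pioneer factor that opens chromatin at the Pdx1 gene, had 8892 counts (45.5 TPM) in CAST and 8451 counts (68.5 TPM) in B6, a log2 ratio of -0.22. Foxo1, which insulin signalling drives out of the nucleus, had 7257 counts in CAST and 6884 in B6, a log2 ratio of -0.21. Foxa3, better known from liver, had 1109 counts in CAST and 1171 in B6, a log2 ratio of -0.37. Their spread, from -0.37 to -0.21, was narrow.

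The hepatocyte nuclear and GATA factors were divided. Gata4, a zinc finger factor of early pancreas that persists in acinar cells, had 359 counts (1.08 TPM) in CAST and 96 counts (0.448 TPM) in B6. It was 3.05-fold higher in CAST, with a log2 ratio of 1.61 (1.29 to 1.95), from the lowest B6 count of the 28 factors. Acinar markers summed to 12575 TPM in CAST and 4157 TPM in B6. Stellate and fibroblast markers and most duct markers were higher in CAST too. The acinar markers Bhlha15 and Rbpjl, which are transcription factors, had log2 ratios of 0.17 and 0.36, under the acinar median of 1.76. The part of RNA from acinar or other cells in the Gata4 difference was not tested. Ptf1a, an acinar and progenitor factor of similar level, had 91 counts in CAST and 55 in B6, a log2 ratio of 0.43 with an interval of -0.06 to 0.95. Gata6, the relative that shares the early role of Gata4, had 1824 counts in CAST and 1385 in B6, a log2 ratio of 0.11 (0.01 to 0.21), which was below 0 with total counts and with TPM. Hnf4a, a nuclear receptor mutated in an inherited diabetes of the young, had 3513 counts in CAST and 2989 in B6, and its ratio of -0.06 had an interval that includes 0 (-0.13 to 0.01). Hnf4g, its close relative, had 437 counts in CAST and 516 in B6, a log2 ratio of -0.53 (-0.72 to -0.34).

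Among the remaining factors, Nr4a3 stood apart. Nr4a3 is an orphan nuclear receptor that cells induce within a short time of stimulation. It had 1012 counts (1.99 TPM) in CAST and 289 counts (0.832 TPM) in B6, 2.86-fold higher in CAST with a log2 ratio of 1.52 (1.33 to 1.71). Its 2 family relatives, which respond to many of the same stimuli, lay on the other side. Nr4a1 had 16876 counts in CAST and 21541 in B6, a log2 ratio of -0.64, and Nr4a2 had 1256 counts in CAST and 1715 in B6, a log2 ratio of -0.74. The sign of each of the 3 was the same with total counts. These lower all log2 ratios by nearly the same small amount, so that outcome was fixed beforehand and adds no support. The 250 bases before the RefSeq start of Nr4a3 (chr4:48045055-48045304, plus strand, GRCm38.p6) are shown because cAMP is a known inducer of this family. Capitals mark 4 copies of the core cAMP motif TGACG, at -231, -205 and -147 on the forward strand and at -213 on the reverse strand (first base, relative to the start), and a GC box at -91 on the reverse strand. The GENCODE gene starts 152 bases before the RefSeq start, so part of this window is transcribed in some annotated forms.
Nr4a3: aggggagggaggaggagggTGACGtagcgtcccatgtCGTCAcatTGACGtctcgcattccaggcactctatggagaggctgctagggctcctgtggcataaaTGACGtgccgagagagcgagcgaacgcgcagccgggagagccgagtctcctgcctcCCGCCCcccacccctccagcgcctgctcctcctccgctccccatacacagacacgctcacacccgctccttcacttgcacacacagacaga

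Promoter windows with 4 or more matches to TGACG on both strands together made up 0.137% of 32851 windows of the same length, and those with at least 1 match 17.8%. The cutoff of 4 is the number found for Nr4a3 itself, so the 0.137% is no test of that window. The 24 factor genes in the promoter table have 32 windows, since some genes have several. At least 1 match was found in 7 of these 32, from 6 genes: Isl1, Nkx6-1, Nr4a3, Onecut1, Pax6 and Tcf7l2. Other motifs were searched on both strands. CCAAT was found in 33.9% of all windows and in 16 of the 32 (13 factor genes), and GGGCGG in 32.7% and in 15 (14 factor genes). TATAAA was found in 12.4% and in 5 (5 factor genes), and CACGTG in 6.02% and in 3 (3 factor genes). TGACGTCA, which contains TGACG, was found in 1.55% and in 1 (Pax6). The factors' windows were richer in G and C, with a median of 58.4% against 52.4% over all windows. These matches describe letters only.

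The other members of this group with enough counts were all below 0. Meis1, a TALE homeodomain partner of other homeodomain factors, had 1455 counts (5.16 TPM) in CAST and 1954 counts (10.9 TPM) in B6, a log2 ratio of -0.71 (-0.81 to -0.62). Etv1, an ETS factor, had 5436 counts in CAST and 6373 in B6, a log2 ratio of -0.52. Its processed copy Gm5454, nearly identical in sequence, was listed at 0 counts in both libraries. Tcf7l2, the Wnt pathway factor whose human gene carries a common risk variant for type 2 diabetes, had 509 counts in CAST and 510 in B6, a log2 ratio of -0.29 (-0.47 to -0.11). Meis2, a paralogue of Meis1, had 11232 counts in CAST and 10987 in B6, a log2 ratio of -0.26. Tshz1, a zinc finger factor of islet maturation, had 9596 counts in CAST and 9078 in B6, a log2 ratio of -0.21.

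Annotated genes that overlap the factors on either strand numbered 25, over 14 of the 32 factors. Besides Plut, Fam241b and Cerkl, only Pax6os1 and 6430503K07Rik had 100 or more counts over both libraries. Pax6os1, antisense to Pax6, had 1076 counts in CAST and 732 in B6, a log2 ratio of 0.27. The Rik gene, antisense within Nkx2-2, had 162 counts in CAST and 142 in B6, a log2 ratio of -0.10 with an interval that includes 0. Neither shares an exon base with its partner.

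Other transcription factors of the pancreas did not share the median shift. Of 25 such genes, 22 had enough counts, 12 above and 10 below 0, with a median of 0.07. Their large differences lay mostly on the B6 side: 8 of 22 were at least 1.5-fold higher in B6, against the 12.8% of all genes, and 2 were at least 1.5-fold higher in CAST, against 12.4%. Among factors of alpha and delta cells, Irx1 had 1031 counts in CAST and 1631 in B6 (log2 ratio -0.95), Irx2 1388 in CAST and 2086 in B6 (-0.88), and Hhex 1275 in CAST and 1801 in B6 (-0.79). The alpha cell factor Pou3f4 was the highest of the list at 1.47, from 96 counts in CAST and 28 in B6. The other extremes were Sox4 (0.90) and Sox9 (0.48) on the CAST side, and Smad9 (-1.31) on the B6 side. The ratios of these alpha and delta cell factors stand beside those of the hormones of these cells, -0.36 for Gcg (glucagon) and -0.90 for Sst (somatostatin).

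Family relatives of the factors had a median close to theirs. Of 44 relatives 26 had enough counts, of which 16 were below 0, with a median of -0.23. Gata2 (-1.22), Tcf7l1 (-0.86) and Nr4a2 (-0.74) were lowest, and Maf (0.71), Mafk (0.68) and Tshz2 (0.61) highest. Gata2 had 177 counts in CAST and 338 in B6, so the 3 GATA genes with enough counts spanned -1.22 for Gata2, 0.11 for Gata6 and 1.61 for Gata4.

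Genes known as targets of the factors were split, with 11 of 20 below 0 and a median of -0.09. Both insulin genes were higher in CAST, Ins2 by a log2 ratio of 0.60 and Ins1 by 0.37, as was Slc2a2, the beta cell glucose transporter, by 0.63. Iapp, the islet amyloid polypeptide that beta cells release with insulin, was at -0.01. The extremes were Ghrl (1.76), Trpm5 (0.74) and Ppy (0.64) above, and Sst (-0.90), Ttr (-0.85) and Chga (-0.77) below. Beside the insulin genes, their activators Mafa, Pdx1 and Neurod1 had log2 ratios of 0.19, -0.21 and -0.53. With TPM and a pseudocount of 1 these 3 were all below 0, at -0.16, -0.54 and -0.87. The TPM scale itself sits lower, at -0.26 for the median gene, and Mafa lay above that value. By TPM the insulin genes differed less as well. Ins1 had 55376 TPM in CAST and 54369 TPM in B6. Ins2 had 477729 TPM in CAST and 404421 TPM in B6.

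**Figure D3:**
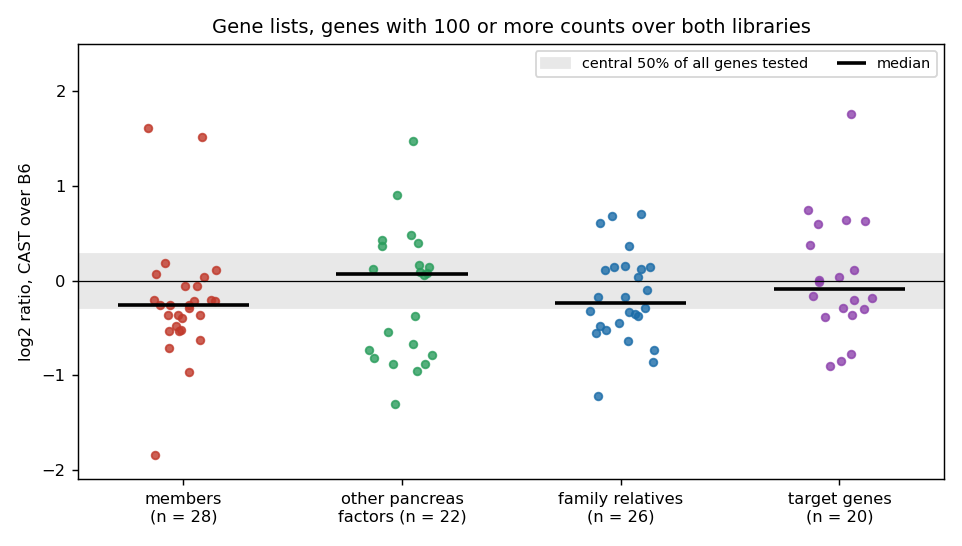
Log2 ratio (CAST over B6) of each gene with 100 or more counts in 4 lists, with a black line at the list's median and a grey band for the central 50% of all genes. Medians are -0.26 for the 28 factors, 0.07 for 22 other pancreas factors, -0.23 for 26 family relatives and -0.09 for 20 target genes; with TPM the median of the factors is -0.55 and that of all genes -0.26.

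The files list values per transcript, so the forms of each gene could be compared. Shares below are percentages of a gene's TPM. Of 19 factors with several listed transcripts and at least 100 counts per library, 3 had another main transcript in CAST than in B6 (Etv1, Myt1 and Tshz1), where 8.11% of all 8981 such genes did. At least 1 transcript differed by 10 or more percentage points in 5 of the 19, or 26.3%, close to the 27.5% of all genes. The largest shift per gene had a median of 6.60 points over the factors and 5.61 points over all genes. Transcripts that differ by few bases are hard to tell apart, and the uncertainty of how RSEM divided their reads is not given, so intervals on shares take that division as exact. The transcript features described next were chosen after their values were seen.

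Pax6 differed in the starts of its transcripts. The mouse gene is known to be transcribed from several promoters and to include or skip a short exon in its DNA-binding paired domain. Of its 26 listed transcripts, 8 are full-length coding forms, 2 from the first annotated start and 6 from a start region with a median distance of 6620 bases downstream. Forms from the first start made up 4.96% of the TPM of these 8 in CAST and 40.9% in B6. Counts gave nearly the same shares, 5.07% (4.84 to 5.31) in CAST and 41.5% (40.9 to 42.1) in B6. Single forms followed, with Pax6-206 at 3.52% of the gene in CAST and 20.2% in B6, Pax6-207 at 0.14% in CAST and 12.5% in B6, and the second-start form Pax6-204 at 47.2% in CAST and 35.0% in B6. A short coding form from the first start, Pax6-214, moved the other way, with 14.0% in CAST and 2.07% in B6. Over all 26 transcripts the first start therefore held 19.2% of the TPM in CAST and 35.4% in B6. By counts, in which this short form weighs less, it held 8.08% in CAST and 35.7% in B6. The forms also differ at their 3′ ends, so the shares are not a pure readout of the start. Whether strain variants in CAST reads, which were quantified on the B6-based reference, affect them was not tested.

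The 42-base exon (chr2:105684751-105684792, plus strand, GRCm38) was present in 28.2% of the TPM of the 8 forms in CAST and 34.3% in B6. Taken within each start, the direction was the opposite. Among forms from the first start, the exon was present in 96.2% in CAST and 61.7% in B6, and among forms from the second start in 24.7% in CAST and 15.4% in B6. In RSEM's division of reads, forms with the exon thus held a larger share in CAST within each start. Forms from the second start, where the exon is rarer, made up more of the CAST total. The first start is represented only by Pax6-206 and Pax6-207, the latter with 63.4 counts in CAST. Reads over the exon are divided between whole annotated forms, so use of the exon per start was not observed directly. As shares of all 8 forms, the first-start form with the exon held 4.77% in CAST and 25.2% in B6, and the first-start form without it 0.190% in CAST and 15.7% in B6. Second-start forms with the exon held 23.5% in CAST and 9.11% in B6, and those without it 71.6% in CAST and 50.03% in B6. Both sequences, from GENCODE M21 transcripts, are given with 15 coding bases on each side, and capitals mark the bases of the exon.
Pax6-206: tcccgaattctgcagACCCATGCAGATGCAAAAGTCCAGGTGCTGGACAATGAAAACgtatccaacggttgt
Pax6-207: tcccgaattctgcaggtatccaacggttgt

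The 250 bases before the RefSeq start of Pax6 (chr2:105668646-105668895, plus strand, GRCm38.p6), next to the first annotated start, hold a full cAMP response element TGACGTCA at -76 and a CCAAT box at -54, both in capitals. The sequence is shown because the share of full-length forms from this start differed by more than any other feature described here.
Pax6: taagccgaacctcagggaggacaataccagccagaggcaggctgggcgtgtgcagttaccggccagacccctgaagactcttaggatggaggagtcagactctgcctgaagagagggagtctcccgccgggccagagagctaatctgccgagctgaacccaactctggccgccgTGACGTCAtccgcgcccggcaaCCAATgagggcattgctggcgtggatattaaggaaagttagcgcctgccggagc

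**Figure D4:**
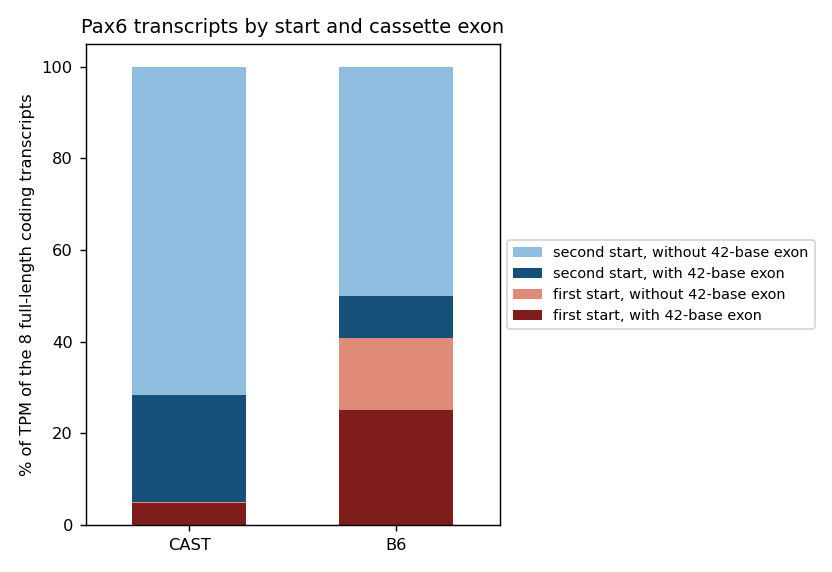
Share of the TPM of the 8 full-length coding Pax6 transcripts by annotated start and by the 42-base exon, 1 stacked bar per library. The red parts, from the first start, sum to 4.96% in CAST and 40.9% in B6, while the dark parts, with the exon, sum to 28.2% in CAST and 34.3% in B6.

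Gata4 differed in form as well as in amount. Its 2 coding transcripts with reads are 3400 and 3374 bases long. Among their differences are 3 bases at the start of a coding exon (chr14:63204756-63204758, minus strand, GRCm38). The form with these bases held 74.3% of Gata4 TPM in CAST and 44.9% in B6. By counts the shares were 74.4% of 359 counts (69.5 to 78.8) in CAST and 45.1% of 96 counts (34.6 to 55.3) in B6. These intervals do not overlap, but they treat every count as telling the forms apart. Only reads over this junction, or over the few other bases by which the annotated forms differ, can tell them apart, and these are a fraction of the counts. The capitals mark the 3 bases.
Gata4-201: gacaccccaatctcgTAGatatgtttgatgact
Gata4-202: gacaccccaatctcgatatgtttgatgact

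Meis1 and Meis2 differed at their ends. In Meis1 the coding form with a short last exon, Meis1-201, held 24.4% of the gene's TPM in CAST and 12.2% in B6, while Meis1-208 held 6.63% in CAST and 13.9% in B6. Among the 3 coding forms compared, the short last exon took 39.8% in CAST and 21.4% in B6. Among the 6 coding forms of Meis2 compared, the downstream first exon took 12.6% in CAST and 24.9% in B6, and the long last coding exon 50.6% in CAST and 43.9% in B6. Another feature of Meis2, 21 bases at the start of the exon before the last (chr2:115867359-115867379, minus strand, GRCm38), was present in 36.3% in CAST and 33.3% in B6. The single most abundant forms hardly moved, with Meis1-209 at 30.3% of its gene in CAST and 30.8% in B6, and Meis2-203 at 26.9% in CAST and 27.5% in B6. The level total of the 21 bases hides opposite moves of single forms. With the bases, Meis2-201 held 19.1% of the gene in CAST and 10.8% in B6, and Meis2-204 2.05% in CAST and 4.99% in B6. Without them, Meis2-206 held 21.7% in CAST and 14.0% in B6, and Meis2-202 9.43% in CAST and 16.7% in B6. The 21 bases are printed in capitals.
Meis2-205: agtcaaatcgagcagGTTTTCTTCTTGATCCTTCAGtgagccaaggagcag
Meis2-206: agtcaaatcgagcagtgagccaaggagcag

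Nkx2-2 differed by a similar size. Nkx2-2-203, with an alternative last coding exon, held 17.4% of the gene in CAST and 7.16% in B6, and the main form Nkx2-2-201 held 64.7% in CAST and 76.6% in B6. The main form Nr4a3-201 held 65.6% in CAST and 57.7% in B6. Nr4a3-203 held 25.5% in CAST and 42.3% in B6, although its counts, 255 in CAST and 114 in B6, were higher in CAST like those of the gene. The 2 forms of Tshz1 changed places, with Tshz1-201 at 45.0% in CAST and 51.6% in B6, and the leading forms of Myt1 were close to each other, with Myt1-202 at 24.0% in CAST and 22.2% in B6 and Myt1-201 at 23.0% in CAST and 24.6% in B6. Hnf4a showed no such shift. Its main form from the downstream start held 65.8% in CAST and 66.1% in B6, and the fragment from the upstream start 34.2% in CAST and 33.9% in B6. That fragment is short and held 4.11% of the counts in CAST and 4.03% in B6. No full-length form from the upstream start is listed, so these shares do not measure how much each start is used.

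Pdx1, Neurod1, Insm1, Mafa, Nkx6-1, Neurog3, Foxa1, Foxo1 and Gata6 are each listed with 1 transcript and so have no shares. For Mnx1 all reads fell to 1 of its 2 forms in both libraries. For others 1 form dominated in both libraries. Foxa2-202 held 95.4% of the gene in CAST and 92.2% in B6, Foxa3-201 96.9% in CAST and 98.0% in B6, Glis3-209 85.1% in CAST and 86.4% in B6, and Rfx3-202 80.5% in CAST and 89.6% in B6. Rfx6-202 held 79.9% in CAST and 74.8% in B6, and Isl1-201 80.4% in CAST and 72.3% in B6. The main Hnf4g transcript, which has no GENCODE M21 entry, held 81.1% in CAST and 76.4% in B6. St18 was shared by St18-213, with 38.6% in CAST and 42.9% in B6, and St18-212, with 37.7% in CAST and 31.96% in B6. The main form of Tcf7l2, Tcf7l2-202, held 35.9% in CAST and 32.7% in B6.

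Transcripts annotated with a retained intron, which are unspliced in part, are listed with reads for 9 of the 19 factors that have several transcripts and at least 100 counts per library. In 7 of the 9 their share was lower in CAST, with a median difference of -2.40 points. The same held for 78.8% of 4441 genes with such transcripts, with a median difference of -1.73 points, close to the values of the factors. The largest differences were in Etv1, at 20.1% in CAST and 33.6% in B6, and in Isl1, at 12.6% in CAST and 22.7% in B6. The main Etv1 transcript was the coding form Etv1-201 in CAST, with 33.8% in CAST and 30.7% in B6, and the retained-intron form Etv1-212 in B6. Pax6 stood at 6.04% in CAST and 11.7% in B6. Rfx3, at 4.60% in CAST and 3.06% in B6, and Glis3, at 0.917% in CAST and 0% in B6, went the other way. Over the whole libraries retained-intron transcripts took 1.12% of counts in CAST and 1.85% in B6.

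**Figure D5:**
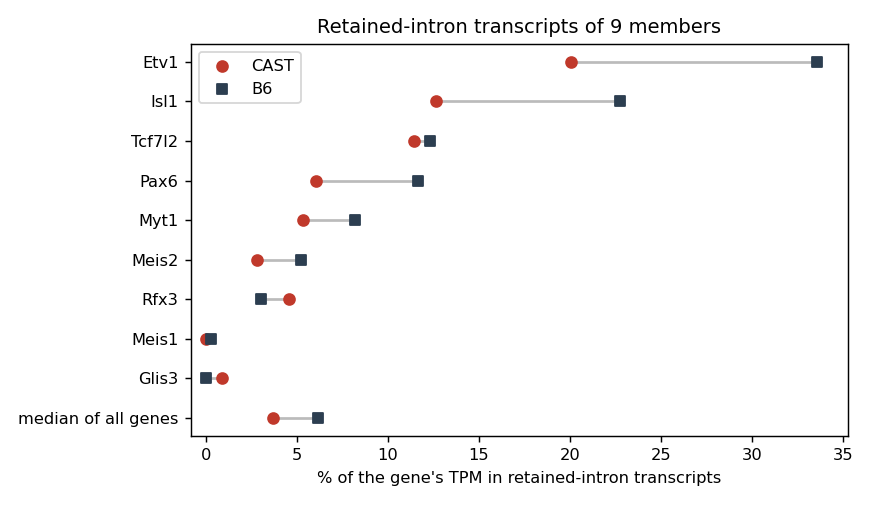
Share of each gene's TPM in transcripts annotated with a retained intron, for the 9 factors that have them and pass the count minimum, and for the median of all genes, with CAST as red circles and B6 as dark squares. The share is lower in CAST for 7 of 9, and the median of all genes is 3.73% in CAST and 6.14% in B6.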

How the data were processed

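The authors' deposited files give, for each of 94545 transcripts and without a header, an expected count and a second value. RSEM and the genome build GRCm38 are named in the submitters' processing notes. The second deposited value was read as the fraction of transcript molecules because it sums to 1 and because counts over this value ranked with transcript length (Spearman 0.965 in CAST and 0.963 in B6, across transcripts). Rescaled it is TPM. Aligner, strand setting, library kit and annotation were not given in the sources used here, so reads of overlapping genes cannot be told apart.

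Rounded gene sums of the expected counts were used. Symbols, transcript types and positions came from GENCODE M21 (GRCm38), which names 37607 of the 38924 genes, and promoter windows from RefSeq (GRCm38.p6), in which 24 of the 32 factors were found. TMM factors from edgeR 4.0.16 (R 4.3.3) were 0.947 for CAST and 1.056 for B6. Ratios add 0.5 to scaled counts. Intervals are exact (Clopper-Pearson), from how a gene's counts divide between the libraries. The computation was tested on simulated data. Near-identical copies were sought with minimap2 2.31. DESeq2 1.42.0 size factors, total counts, TPM, other count minimums, thinning and added copies served as alternatives. Scripts ran in Python 3.11.15 with pandas 2.3.3, scipy 1.17.1, numpy 2.4.6 and, for figures, matplotlib 3.10.9.

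The members and all gene lists were chosen with earlier results of these data known. Named genes are all members, the 3 highest and 3 lowest of each further list with 100 or more counts, hormone genes, main transcripts, transcripts 10 or more points apart and overlapping genes. Some genes that this rule names are not reported here. Nr4a1, Irx2, Hhex, Ptf1a, Bhlha15, Rbpjl, Slc2a2 and the transcript features and sequences printed were chosen after their values were seen.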

Additional observations from a re-analysis of the deposited data

How the results depend on the processing

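No paired analysis was possible because each strain has 1 library, so no replicate could be left out either. DESeq2 size factors, TMM factors without acinar and hormone genes, thinning of CAST to the B6 total, no count minimum and added copies left the counts of factors past 2-fold and 1.5-fold within 1.5 times of those reported, with the median close to -0.26. Other measures moved them. With total counts 2 factors passed 2-fold and 8 passed 1.5-fold towards B6, for a median of -0.41. With TPM and a pseudocount of 1, 0 factors passed 2-fold and 1 passed 1.5-fold towards CAST, 2 passed 2-fold and 11 passed 1.5-fold towards B6, for a median of -0.55. With a pseudocount of 0.1, 2 passed 2-fold and 2 passed 1.5-fold towards CAST, as with TMM. Towards B6, 4 passed 2-fold and 15 passed 1.5-fold, for a median of -0.59. These measures also lowered the median of all genes, to -0.14, -0.26 and -0.32. A minimum of 500 counts left 1 factor past 2-fold and 1 past 1.5-fold towards CAST, because Gata4 has fewer counts. With 20 counts per library as the minimum, 4 factors had another main transcript, Gata4 being added. By share of counts in place of TPM, 2 factors had another main transcript, Myt1 and Meis2. Among the 28 factors, counting intervals were widest for Gata4, Neurog3 and Nr4a3, and depth limits the 4 factors under 100 counts more.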
